A study of Mus musculus with 20 samples.

Results

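Regulatory T (Treg) cells treated with GGTI, which the study uses as an inhibitor of protein prenylation, were compared with DMSO cells at 18 h and at 48 h of stimulation, and the 2 GGTI effects were set against each other. The comparison was the interaction (GGTI minus DMSO at 48 h) minus (GGTI minus DMSO at 18 h), on the log2 scale, for each of 21928 genes. It rests on 11 of the 20 arrays of the series, chosen by the treatment label: 3 of DMSO at 18 h, 2 of GGTI at 18 h, 3 of DMSO at 48 h and 3 of GGTI at 48 h. The other 9 arrays are DMSO at 0 h, FTI at 18 h and FTI at 48 h, with 3 arrays each.

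All groups hold CD4+YFP+ cells with low CD44, a population labelled cTreg, which came from spleen and pLN of C57BL/6J mice of the Foxp3YFP-Cre strain, where Cre and the YFP reporter are driven from Foxp3. No further allele is named. The cells of the 4 groups were cultured with anti-CD3/28 (10 ug/ml) and 200 U/ml of interleukin-2 as the stimulus. GGTI cells had GGTI for 2 h before stimulation and during it, and the labels name no matching step for DMSO. Neither the compound behind the name nor its dose nor the age of the mice is given in the sources used here. Whether the arrays of a group come from separate mice is not stated in the labels, so the p-values below reflect array-to-array spread alone and that spread may be technical.

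Prenylation attaches an isoprenoid lipid, farnesyl or the longer geranylgeranyl, to a cysteine near the end of proteins such as the Ras and Rap GTPases, and anchors them to membranes. Both lipids are made from mevalonate, in the pathway that also leads to cholesterol. The geranylgeranyl transferase of type I, the enzyme that this class of inhibitor is named for, joins a common alpha subunit encoded by Fnta to a beta subunit encoded by Pggt1b, while farnesyltransferase, the target of the FTI class, joins the same alpha subunit to Fntb. A resting Treg cell that meets antigen and interleukin-2 turns off genes of lymph node homing, such as Klf2 and S1pr1, divides, switches to glycolysis and takes on effector receptors and transcription factors.

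RMA values of arrays within a group correlated at r = 0.9914 to 0.9962 across genes. The median of the negative-control probe sets lay at 4.937 to 5.32 on the 11 arrays, lowest on the third DMSO 18 h array, which also had the lowest quality weight in limma (0.503 against 0.73 to 1.84). The means of these medians were 5.17, 5.17, 5.18 and 5.28 in DMSO 18 h, GGTI 18 h, DMSO 48 h and GGTI 48 h, and a group mean at or below them is called near background below, which limits the size of a change. The cells carried the markers of the labelled type: Foxp3 read 10.77 to 11.24, Cd4 9.52 to 10.01 and Cd3e 11.14 to 11.27 over the 11 arrays. Defining B cell genes were dim, with Pax5 and the other markers of that list averaging 5.23 to 5.85 per array, and none of the 6 measured passed limma's test for the interaction, nor had any an unadjusted p under 0.05. The mean of 11 myeloid and dendritic markers was 5.50 to 5.73 on every array, but the members differed. Of the 11, 5 were near background in every group. Cst3 read 10.39 to 10.81, Cd74 6.75 to 7.89 and Cd68 6.27 to 6.78 over the 11 arrays, so the mean does not show that such markers were absent.

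The GGTI effect was larger at 48 h than at 18 h in scope and in size. At 18 h limma called 443 genes (2.02% of those tested), 323 higher with GGTI (1.47%) and 120 lower (0.547%). At 48 h it called 4750 (21.7%), 2206 higher (10.1%) and 2544 lower (11.6%). The SD of the effects over all genes was 0.204 at 18 h and 0.399 at 48 h on the log2 scale, and the median absolute effect was 0.111 and 0.147. The 18 h effect rests on 2 GGTI arrays and the 48 h effect on 3, so the 2 counts of calls differ in precision as well. The test of the difference itself, the interaction, called 907 genes (4.14%) at an adjusted p under 0.05: 500 (2.28%) whose effect was higher at 48 h and 407 (1.86%) whose effect was lower. Of these, 306 (1.4%) differed at least 2-fold between the times. The median interaction of all genes was -0.004. Counts of called interactions in the gene lists below are to be read beside the shares of all genes, 2.28% higher and 1.86% lower.

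The early effect was mostly carried on. The comparisons at 18 h and 48 h share no array, and 413 genes were called in both, which is 93.2% of the 18 h calls and 8.69% of the 48 h calls. Of the 413, 410 had the same sign at both times, and their median absolute effect was 0.601 at 18 h and 1.04 at 48 h. Over all 21928 genes, which are not independent and share array and normalization, the 2 effects correlated at Pearson r = 0.594.

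Precision is set by the small groups. The median standard error of the interaction was 0.184, and the count of 907 fell to 590 without the first GGTI 18 h array and to 469 without the second, of which 546 and 447 were among the 907. The 407 lower calls became 266 without the first DMSO 18 h array, 257 without the second DMSO 48 h array and 177 without the second GGTI 18 h array, and the 500 higher calls became 305 and 292 without the first or the second GGTI 18 h array. The 443 calls at 18 h became 87 and 210 without the first or the second GGTI 18 h array and 262 without the second DMSO 18 h array. Near background, 27 of the 907 genes had no group mean above the median of the negative controls.

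**Figure D1:**
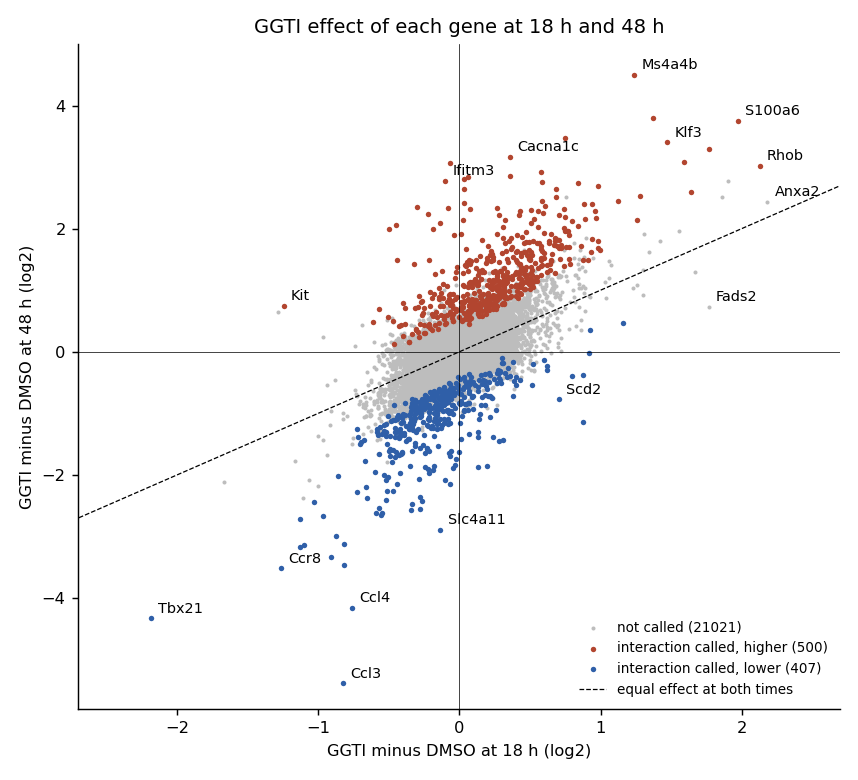
Each point is 1 of 21928 genes, with the log2 GGTI effect (GGTI minus DMSO) at 18 h on the x axis and at 48 h on the y axis; red and blue points are the 500 and 407 genes whose interaction was called higher or lower, and the dashed line marks equal effects. The cloud is taller than it is wide, and the labelled genes with the largest departures from the line, such as Ccl3 and Ms4a4b, lie on the side of the larger effect at 48 h.

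The 12 lowest interactions of annotated genes held the chemokines Ccl3 and Ccl4, the cytotoxic and T helper 1-like genes Nkg7, Ifng and Tbx21, and 7 genes outside those lists. Ccl3, a CC chemokine that attracts leukocytes, read 7.64, 7.96 and 8.04 on the DMSO 18 h arrays and 7.01 and 7.11 with GGTI. Ccl3 at 48 h read 10.53, 10.06 and 10.26 in DMSO and 5.32, 5.17 and 4.19 with GGTI. DMSO and GGTI arrays did not overlap at either time, and while the DMSO level climbed between the times, the GGTI level dropped to near background. The log2 effect was -0.82 ± 0.25 (SE) at 18 h (adjusted p = 0.105) and -5.39 ± 0.22 at 48 h (adjusted p = 3.37e-12), and the interaction was -4.57 ± 0.33 (adjusted p = 1.28e-07).

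Ccl4, its companion chemokine, read 7.10, 7.49 and 7.45 in DMSO and 6.59 and 6.57 with GGTI at 18 h. Its 48 h arrays read 9.73, 9.66 and 9.66 in DMSO and 5.51, 5.90 and 5.15 with GGTI. The groups again did not overlap, and the gap widened to an interaction of -3.40 ± 0.30 (adjusted p = 1.13e-06). Ccl20, the ligand of CCR6, was level at 18 h (log2 0.01) and fell with GGTI at 48 h (log2 -1.41), with an interaction of -1.43 ± 0.26 (adjusted p = 0.00253). These were the 3 of 12 chemokine ligand genes with a called interaction, all lower. The list's median interaction was -0.21, and all 3 calls were kept whichever of the 11 arrays was left out.

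**Figure D2:**
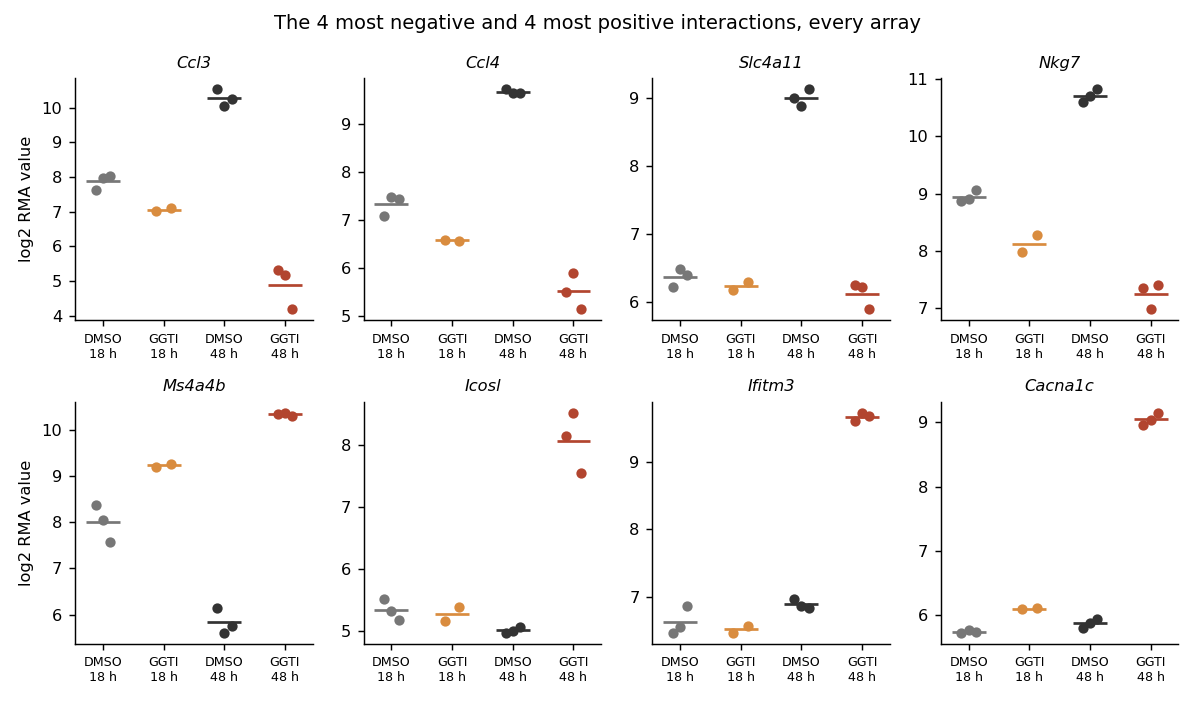
RMA value (log2, y axis of each panel, not starting at 0) of the 4 genes with the most negative and the 4 with the most positive interaction, with 1 point per array and a line at each group mean. In the upper row the DMSO level is highest at 48 h and the GGTI 48 h mean is the lowest of the 4; in the lower row the GGTI 48 h arrays are the highest.

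Some genes of the cytotoxic granule list had a lower interaction as well. Nkg7, a granule protein of cytotoxic lymphocytes, read 8.87, 8.90 and 9.06 in DMSO and 7.97 and 8.28 with GGTI at 18 h. Nkg7 at 48 h read 10.60, 10.71 and 10.82 in DMSO and 7.34, 6.98 and 7.40 with GGTI. Every GGTI 48 h array lay below every array of the other groups, and the interaction was -2.65 ± 0.24 (adjusted p = 1.87e-06). Fasl, the death ligand, read 5.62, 5.62 and 5.90 in DMSO against 5.99 and 5.69 with GGTI at 18 h, where the groups overlapped. Fasl at 48 h read 6.99, 7.66 and 6.96 in DMSO and 5.41, 5.21 and 5.37 with GGTI, and the interaction was -2.01 ± 0.24 (adjusted p = 3.98e-05). In all, 4 of 14 measured granule genes had a lower interaction (28.6%) and none a higher one, and the median was -0.18. Of the 14, 6 were near background in every group. At 48 h 5 of the 14 were lower with GGTI and 1 was higher, against 11.6% and 10.1% of all genes. Leaving out 1 array at a time gave 3 or 4.

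The genes around the transcription factor T-bet, encoded by Tbx21, differed in when they fell. Tbx21 itself read 7.51, 7.89 and 8.04 in DMSO and 5.96 and 5.30 with GGTI at 18 h, so it had already fallen by log2 -2.18 ± 0.30 (adjusted p = 0.000433). Tbx21 at 48 h read 9.58, 9.40 and 9.32 in DMSO and 5.44, 5.02 and 4.85 with GGTI, an effect of -4.33 ± 0.27. The GGTI level stayed low, within the range of 18 h or just under it, while DMSO climbed by 1.62, and the interaction was -2.15 ± 0.40 (adjusted p = 0.00305). Its GGTI 48 h mean was near background.

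Ifng, the T helper 1 cytokine, was near background at 18 h in both groups, at 4.80, 4.84 and 4.30 in DMSO and 4.32 and 4.29 with GGTI. It appeared by 48 h in DMSO, at 6.93, 6.54 and 6.38, and not with GGTI, at 4.17, 3.92 and 4.03. The interaction was -2.23 ± 0.24 (adjusted p = 8.37e-06), and since only the DMSO 48 h mean was above background, its size is a difference between DMSO 48 h and background. Irf8, a transcription factor of the interferon regulatory family, fell by 1.1 on the log2 scale at 18 h and by 3.14 at 48 h, with an interaction of -2.04 ± 0.23 (adjusted p = 1.47e-05). Eomes, the T-box relative of T-bet, fell by 0.97 and by 2.67, with an interaction of -1.70 ± 0.31 (adjusted p = 0.00217).

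Of 15 measured genes of the T-bet programme, 6 had a lower interaction and 1, the signal transducer Stat4, a higher one (0.80 ± 0.19, adjusted p = 0.0158). The Stat4 call was lost without either GGTI 18 h array, and the 6 lower calls became 5 or stayed 6. The median interaction was -0.43. The highest value of the list, 1.75 for the interleukin-18 receptor gene Il18r1, was not called. Il18r1 read 7.09, 5.73 and 6.72 in DMSO and 7.86 and 6.69 with GGTI at 18 h. At 48 h it read 7.12, 6.06 and 6.81 in DMSO and 9.57, 8.49 and 9.46 with GGTI. Il10 and Il24 were, beside Ifng, the called genes among 20 T cell cytokines, at -1.55 ± 0.29 and -1.04 ± 0.24 (adjusted p = 0.00303 and 0.0158). Il10, the suppressive cytokine of Treg cells, was above background only in the DMSO groups, and Il24 in no group. Of the 20 cytokine genes, 9 were near background in every group.

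The list of CD8 T and NK cell markers shares genes with the lists above. Of the 9 in that list, Nkg7, Eomes and Ctsw had a lower interaction and none a higher one. Nkg7 and Ctsw are also in the cytotoxic granule list and Eomes is in the T-bet programme. These calls were therefore already counted above, and no marker beside these genes was called. The shared genes also enter the list's mean level, so that mean is not a separate test of such cells. The list's mean level was 5.47 to 5.60 on DMSO 18 h arrays, 5.32 to 5.38 on GGTI 18 h arrays, 5.96 to 6.15 on DMSO 48 h arrays and 5.24 to 5.46 on GGTI 48 h arrays. Cd8a, which defines CD8 T cells, had an interaction of -0.09 (adjusted p = 0.957), and Cd8b1 one of 0.60 (adjusted p = 0.0524). Over the DMSO and GGTI arrays of 18 h and 48 h, Cd8a read 5.94 to 7.09 and Cd8b1 7.84 to 8.82. Both were above background in every group, so the list's mean does not show that CD8 markers were absent. Ncr1, which defines NK cells, was near background in every group. In bulk samples, fewer cells of a type and less RNA per cell cannot be told apart.

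Other genes with the lowest interactions rose in DMSO between the times and not with GGTI. Slc4a11, a membrane transporter, read 6.21, 6.48 and 6.39 in DMSO and 6.17 and 6.29 with GGTI at 18 h. Slc4a11 at 48 h read 9.0, 8.88 and 9.13 in DMSO and 6.24, 6.21 and 5.89 with GGTI. The 18 h groups overlapped and the 48 h groups lay far apart, with an interaction of -2.76 ± 0.26 (adjusted p = 2.41e-06). From 18 h to 48 h Slc4a11 rose by 2.64 ± 0.17 in DMSO and changed by -0.12 with GGTI. Spp1, which encodes the secreted protein osteopontin, read 5.16, 4.89 and 5.48 in DMSO and 4.98 and 4.81 with GGTI at 18 h. Spp1 at 48 h read 7.56, 7.29 and 7.43 in DMSO and 4.86, 4.87 and 4.88 with GGTI, and the interaction was -2.28 ± 0.19 (adjusted p = 5.01e-07).

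The same course was seen for Prss16, a thymus-specific serine protease, at -2.30 ± 0.32 (adjusted p = 0.000178), and for Smim3, a small membrane protein, at -2.16 ± 0.38 (adjusted p = 0.00168). Both were above background only in DMSO at 48 h. Pik3ap1, an adaptor that links receptors to phosphoinositide 3-kinase in B cells, had an interaction of -2.13 ± 0.31 (adjusted p = 0.000294) and was above background in both DMSO groups. Slamf7, a receptor of the SLAM family, had already fallen by 0.91 on the log2 scale at 18 h and fell by 3.34 at 48 h. Its interaction was -2.43 ± 0.24 (adjusted p = 4.79e-06). The GGTI 48 h arrays of Slamf7, at 4.79, 4.99 and 4.97, were near background, which limits the size of that change.

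Receptors of effector Treg cells split. Ccr8, a chemokine receptor of activated and tissue Treg cells, read 9.01, 8.88 and 8.93 in DMSO and 7.54 and 7.82 with GGTI at 18 h. Ccr8 at 48 h read 9.59, 9.71 and 9.60 in DMSO and 6.47, 6.14 and 5.73 with GGTI. The effect was called at both times, at -1.26 ± 0.22 and -3.52 ± 0.20, and the interaction was -2.26 ± 0.30 (adjusted p = 0.000108). Pdcd1, which encodes the inhibitory receptor PD-1, read 9.29, 9.36 and 9.41 in DMSO and 8.60 and 8.67 with GGTI at 18 h. Its 48 h values were 9.60, 9.33 and 9.58 in DMSO and 7.40, 7.25 and 7.0 with GGTI, so DMSO held its level and GGTI dropped further, with a log2 change of -1.41 ± 0.12 between 18 h and 48 h. The interaction of Pdcd1 was -1.56 ± 0.17 (adjusted p = 8.83e-06).

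Tigit, another inhibitory receptor, read 8.73, 8.56 and 8.92 in DMSO and 8.13 and 8.04 with GGTI at 18 h. Tigit at 48 h read 9.12, 9.19 and 9.39 in DMSO and 7.09, 6.48 and 6.99 with GGTI, and the interaction was -1.72 ± 0.22 (adjusted p = 7.03e-05). In the other direction, Cd86, a ligand of CD28 and CTLA-4 that is best known from antigen-presenting cells, was level at 18 h, at 6.49, 6.66 and 6.78 in DMSO and 6.29 and 6.83 with GGTI. Cd86 at 48 h read 5.71, 5.88 and 5.39 in DMSO and 8.07, 8.01 and 7.91 with GGTI. DMSO dropped and GGTI climbed, for an interaction of 2.41 ± 0.26 (adjusted p = 1.08e-05). Of 22 measured effector Treg receptor genes, 6 had a lower and 2 a higher interaction, with a median of -0.15. The 6 were 6 or 7 with 1 array left out. The other higher one was Il1rl1, the receptor for interleukin-33, at 1.47 ± 0.37 (adjusted p = 0.0278), and the 2 higher calls became 1 without any 1 of 7 arrays (the first or the third DMSO 18 h, the second GGTI 18 h, the first or second DMSO 48 h and the first or the third GGTI 48 h arrays).

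Among 16 chemokine receptors, Ccr8 and Cxcr5 had a lower interaction and Cxcr4 a higher one. Cxcr5, the receptor that leads cells to B cell follicles, fell with GGTI by 1.92 on the log2 scale at 48 h and was at log2 -0.19 at 18 h, with an interaction of -1.73 ± 0.24 (adjusted p = 0.000142). Cxcr4, the receptor for the bone marrow and stromal chemokine CXCL12, had an interaction of 1.02 ± 0.25 (adjusted p = 0.0249), a call that was lost without any 1 of 6 arrays (the first or the third DMSO 18 h, the second GGTI 18 h, the second or the third DMSO 48 h and the first GGTI 48 h array). The list's median interaction was -0.06, and 7 of the 16 were near background in every group.

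Several transcription factors induced by the T cell receptor fell with GGTI at 48 h and had not passed the test at 18 h. Nr4a3, an orphan nuclear receptor used as a reporter of receptor signalling, read 10.89, 11.01 and 11.10 in DMSO and 10.39 and 10.43 with GGTI at 18 h. Nr4a3 at 48 h read 11.15, 11.13 and 11.13 in DMSO and 8.74, 8.44 and 8.36 with GGTI. The DMSO arrays kept to a narrow range over both times, and the interaction was -2.04 ± 0.36 (adjusted p = 0.00186). Egr2, an early growth response factor, read 10.61, 10.66 and 10.75 in DMSO and 10.19 and 10.22 with GGTI at 18 h. Its 48 h arrays read 10.68, 10.38 and 10.51 in DMSO and 8.41, 8.15 and 8.21 with GGTI, with an interaction of -1.80 ± 0.41 (adjusted p = 0.0146). The Egr2 value was -1.87 to -1.72 with 1 array left out, and its call was lost without either GGTI 18 h array, at an adjusted p of up to 0.069.

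Batf, an AP-1 family factor that effector Treg cells need, went the other way, at 9.70, 9.71 and 9.76 in DMSO and 9.73 and 9.74 with GGTI at 18 h. Batf at 48 h read 9.88, 9.86 and 9.83 in DMSO and 10.59, 10.68 and 10.73 with GGTI, an interaction of 0.80 ± 0.12 (adjusted p = 0.000493). Of the 20 receptor-induced factors, 4 had a lower and 1 a higher interaction, with a median of -0.16. The 4 became 1 without either GGTI 18 h array and 2 without the first DMSO 18 h, the first DMSO 48 h or the third GGTI 48 h array. Nr4a1, a further nuclear receptor of this family, had an interaction of -1.08 ± 0.39 and Irf4, which drives effector Treg differentiation, one of -0.77 ± 0.42, and neither passed (adjusted p = 0.166 and 0.45). Myc, the growth regulator, was level at 0.01 ± 0.38.

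Many genes of glycolysis and of ribosome biogenesis were lowered more by GGTI at 48 h than at 18 h. Aldoa, the glycolytic aldolase, read 10.56, 10.93 and 10.87 in DMSO and 10.70 and 10.71 with GGTI at 18 h, where the groups overlapped. Aldoa at 48 h read 10.87, 10.98 and 10.87 in DMSO and 9.81, 9.71 and 9.70 with GGTI, an interaction of -1.08 ± 0.14 (adjusted p = 9.68e-05). Slc16a3, the lactate exporter, read 7.30, 7.42 and 7.52 in DMSO and 7.28 and 7.03 with GGTI at 18 h. Slc16a3 at 48 h read 8.31, 8.59 and 8.36 in DMSO and 6.85, 7.01 and 6.88 with GGTI, an interaction of -1.25 ± 0.20 (adjusted p = 0.000606). Pgam1, phosphoglycerate mutase, had an interaction of -0.76 ± 0.13 (adjusted p = 0.000958).

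Of 23 measured genes of glycolysis and the pentose phosphate pathway, 10 had a lower interaction (43.5%) and none a higher one, and the median was -0.47. One member was lower with GGTI at 18 h and 17 at 48 h, with median effects of -0.14 and -0.69. The 10 became 8 to 10 with 1 array left out. Between 18 h and 48 h the DMSO cells raised 13 of the 23, at a time when limma called 3370 genes (15.4%) in DMSO, 1748 higher (7.97%) and 1622 lower (7.4%). With GGTI 2 of the 23 rose and 3 fell between the times, against 2237 genes (10.2%) called in all, 1305 higher (5.95%) and 932 lower (4.25%). The 3370 became 2124 without the first DMSO 18 h and 1801 without the second DMSO 48 h array, and the 2237 became 1076 without the first GGTI 18 h array. The interaction is the difference of these 2 courses and uses the same arrays.

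Utp20, a component of the machinery that processes ribosomal RNA, read 9.29, 9.59 and 9.34 in DMSO and 8.88 and 8.91 with GGTI at 18 h. Utp20 at 48 h read 9.44, 9.53 and 9.33 in DMSO and 8.05, 7.97 and 7.76 with GGTI, an interaction of -0.99 ± 0.16 (adjusted p = 0.000941). The nucleolar protein gene Nolc1 and Srm, spermidine synthase, had interactions of -0.76 ± 0.14 and -0.66 ± 0.12 (adjusted p = 0.00201 and 0.00284). In the list of 28 ribosome biogenesis genes, 11 had a lower interaction (39.3%) and none a higher one. The median effect was -0.32 at 18 h and -0.74 at 48 h, with 3 and 27 members called lower, and the median interaction was -0.45. The 11 became 5 without the second GGTI 18 h array and 7 without the first or the second DMSO 48 h array.

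**Figure D3:**
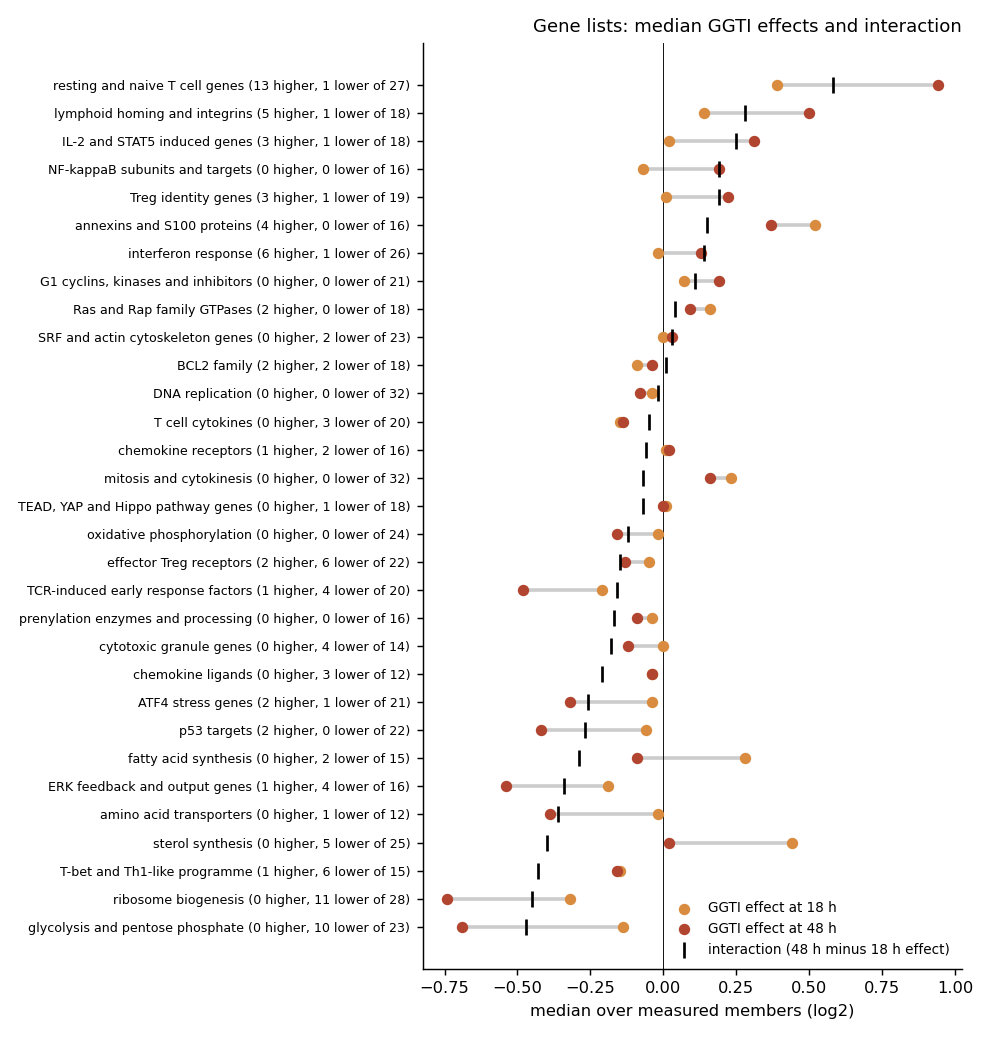
Median over the measured members of gene lists, cell type marker lists not included, of the log2 GGTI effect at 18 h (orange), the effect at 48 h (red) and the interaction (black bar), in order of the median interaction, with the counts of called interactions beside each name; where the 2 points coincide only the red one is seen. Of the lists shown, resting T cell genes stand at the positive end with medians of 0.39 and 0.94, and ribosome biogenesis and glycolysis at the negative end.

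Among the 12 highest interactions of annotated genes were 3 Ms4a genes and 2 Ifitm genes, and 1 of the 12, Ms4a4b, was in the resting T cell list. Ms4a4b, a membrane protein of naive T cells, read 8.38, 8.04 and 7.57 in DMSO and 9.20 and 9.27 with GGTI at 18 h. Ms4a4b at 48 h read 6.14, 5.61 and 5.76 in DMSO and 10.35, 10.36 and 10.29 with GGTI. DMSO lost and GGTI gained level between the times, and the log2 effect grew from 1.24 ± 0.23 to 4.5 ± 0.21, an interaction of 3.26 ± 0.31 (adjusted p = 2.44e-06).

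Klf3, a repressor of the Krüppel-like family, read 7.36, 7.27 and 6.84 in DMSO and 8.63 and 8.63 with GGTI at 18 h. Its 48 h arrays read 5.89, 5.55 and 6.03 in DMSO and 9.23, 9.21 and 9.24 with GGTI, an interaction of 1.93 ± 0.22 (adjusted p = 1.47e-05). Id3, an inhibitor of E protein transcription factors, read 7.18, 7.69 and 7.59 in DMSO and 8.04 and 8.11 with GGTI at 18 h. Id3 at 48 h read 6.51, 6.25 and 6.48 in DMSO and 9.22, 9.33 and 8.98 with GGTI, an interaction of 2.18 ± 0.22 (adjusted p = 5.66e-06). For both genes the groups did not overlap at either time, and the level moved down in DMSO and up with GGTI.

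S1pr1 and Klf2, of the resting state, had smaller interactions. S1pr1, the receptor for the lipid that draws cells out of lymph nodes, read 8.48, 8.12 and 8.20 in DMSO and 9.24 and 9.17 with GGTI at 18 h. S1pr1 at 48 h read 7.33, 7.22 and 7.37 in DMSO and 9.84, 9.73 and 9.54 with GGTI, an interaction of 1.46 ± 0.19 (adjusted p = 9.68e-05). Klf2, the transcription factor that drives S1pr1, was already higher by 1.26 at 18 h (adjusted p = 0.000109) and by 2.14 at 48 h. Its interaction of 0.88 ± 0.21 (adjusted p = 0.0166) was 0.74 to 1.03 with 1 array left out and lost its call without the first GGTI 18 h array, at an adjusted p of 0.118.

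Of 27 measured resting and naive T cell genes, 13 had a higher interaction and 1, Bach2, a lower one, so 51.9% were called against 4.14% of all genes. The median effect was 0.39 at 18 h and 0.94 at 48 h, with 9 and 18 members called higher, and the median interaction was 0.58. The 13 became 12 to 14 with 1 array left out. In DMSO 15 of the 27 fell between the times and none rose, and with GGTI 7 rose and 2 fell. Of 18 homing receptors and integrins, 5 had a higher interaction, S1pr1 among them, and 1 a lower one, with a median of 0.28. The homing receptor Ccr7 did not pass, at -0.33 ± 0.15 (adjusted p = 0.305). Itgb3, the integrin beta 3 chain, was the called integrin with the highest value, at 1.49 ± 0.19 (adjusted p = 7.34e-05). Bach2, a repressor that holds T cells in the resting state, had an interaction of -0.62 ± 0.14 (adjusted p = 0.0107), which was not called without the second GGTI 18 h array.

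The Ms4a genes, which encode membrane proteins with 4 spans and lie on chromosome 19 in the GRCm38.p6 annotation, were looked at as a family after their values were seen. Of 20 measured, 7 had a higher interaction and none a lower one, and 10 were near background in every group. Ms4a4c read 5.84, 5.65 and 5.59 in DMSO and 6.41 and 6.47 with GGTI at 18 h. Ms4a4c at 48 h read 4.61, 4.98 and 4.63 in DMSO and 8.15, 8.26 and 8.24 with GGTI, an interaction of 2.73 ± 0.18 (adjusted p = 2.17e-08). Its DMSO 48 h mean of 4.74 was near background. Ms4a6d read 3.53 to 4.48 on the DMSO 18 h, GGTI 18 h and DMSO 48 h arrays and 6.37, 6.95 and 6.44 on those of GGTI 48 h, for an interaction of 2.49 ± 0.26 (adjusted p = 7.26e-06). Of its 4 group means, that of GGTI 48 h alone was above background, so the size is a difference from background. The other 4 called members, beside Ms4a4b, ranged from 1.05 for Ms4a6c to 1.51 for Ms4a4d. Ms4a1, the B cell member of the family that encodes CD20, was at 0.19 ± 0.15 (adjusted p = 0.687). These genes are close copies of each other, and probe sets may share signal between them.

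Ifitm1, Ifitm2 and Ifitm3, interferon-induced transmembrane genes whose proteins hinder viruses from entering cells, were not called at 18 h and were high with GGTI at 48 h. Ifitm3 read 6.47, 6.55 and 6.86 in DMSO and 6.47 and 6.57 with GGTI at 18 h. Ifitm3 at 48 h read 6.97, 6.86 and 6.84 in DMSO and 9.61, 9.72 and 9.67 with GGTI. The 18 h groups overlapped, the GGTI 48 h arrays lay far above all others, and the interaction was 2.88 ± 0.15 (adjusted p = 5.02e-10). Ifitm1 read 6.54, 6.57 and 6.47 in DMSO and 6.53 and 6.6 with GGTI at 18 h. Its 48 h values were 6.57, 6.32 and 6.55 in DMSO and 9.39, 9.42 and 9.05 with GGTI, an interaction of 2.77 ± 0.25 (adjusted p = 1.13e-06). Ifitm2 moved likewise, at 2.18 ± 0.18 (adjusted p = 5.01e-07).

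The promoters of these 3 genes are shown because they rose together, with the start of each gene 30 bases before the end of the sequence. They are RefSeq sequence of GRCm38.p6, printed 5′ to 3′ on the strand of the gene, with capitals marking GAAANNGAA, the core of an interferon-stimulated response element. The motif was searched on both strands of windows of 250 bases before to 50 after each gene start, and adjacent matches may overlap.
Ifitm1, chr7:140967906-140968105, plus strand: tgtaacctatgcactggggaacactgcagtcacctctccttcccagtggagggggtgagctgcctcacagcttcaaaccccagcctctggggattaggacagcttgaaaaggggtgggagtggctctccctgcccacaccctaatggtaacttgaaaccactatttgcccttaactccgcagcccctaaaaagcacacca
Ifitm2, chr7:140955932-140956131, minus strand: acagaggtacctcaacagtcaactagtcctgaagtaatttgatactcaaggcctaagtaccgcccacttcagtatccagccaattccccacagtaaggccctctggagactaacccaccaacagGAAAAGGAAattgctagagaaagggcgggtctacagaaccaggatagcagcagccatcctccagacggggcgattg
Ifitm3, chr7:141010715-141010914, minus strand: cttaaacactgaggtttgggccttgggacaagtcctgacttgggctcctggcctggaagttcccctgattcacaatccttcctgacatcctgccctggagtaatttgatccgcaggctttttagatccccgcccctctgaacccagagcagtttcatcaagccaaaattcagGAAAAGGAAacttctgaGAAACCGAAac
Ifitm3 held 2 matches, starting at bases 3 and 20 of the transcribed part, and Ifitm2 held 1, starting at base -46 relative to the start, while these letters were not in the Ifitm1 window. Over all 32851 windows 8.56% held the motif. Of 26 measured interferon response genes 18 had a window, and 11 of the 18 held it.

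Most genes of the interferon response list were not called. Of its 26 genes, 6 had a higher interaction and 1 a lower one, and the median was 0.14. That is 26.9% called, against 4.14% of all genes. Of the 26, 9 were near background in every group, which limits what could be called. The 6 became 3 without the first GGTI 18 h array. The lower one was Bst2, which encodes the antiviral tether tetherin, at -0.89 ± 0.21 (adjusted p = 0.017), a call lost without the first DMSO 18 h, the second GGTI 18 h or the second DMSO 48 h array. Isg15, a ubiquitin-like protein induced by interferon, was at -0.23 ± 0.20 (adjusted p = 0.708). Among all 6 measured Ifitm genes, a family looked at after the values were seen, 4 were called higher, Ifitm7 with a smaller value of 0.66 ± 0.17 (adjusted p = 0.0273), and the median was 1.46. Ifit1bl1, a relative of the interferon-induced Ifit genes, had an interaction of 2.46 ± 0.33 (adjusted p = 0.000131).

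Genes of several other functions had some of the highest interactions. Icosl, the ligand of the costimulator ICOS, read 5.51, 5.32 and 5.18 in DMSO and 5.16 and 5.39 with GGTI at 18 h. Icosl at 48 h read 4.97, 5.0 and 5.07 in DMSO and 8.15, 8.52 and 7.56 with GGTI, an interaction of 3.13 ± 0.26 (adjusted p = 6.71e-07), and the DMSO 48 h mean of 5.01 was near background. Cacna1c, the pore subunit of the L-type calcium channel known from heart and neurons, read 5.73, 5.77 and 5.74 in DMSO and 6.10 and 6.11 with GGTI at 18 h. Cacna1c at 48 h read 5.81, 5.88 and 5.95 in DMSO and 8.96, 9.04 and 9.14 with GGTI, an interaction of 2.81 ± 0.14 (adjusted p = 5.02e-10). Tcea3, a transcription elongation factor of the TFIIS family, had an interaction of 2.61 ± 0.24 (adjusted p = 1.33e-06). Atp1b2, a beta subunit of the sodium pump, had one of 2.65 ± 0.25 (adjusted p = 2.44e-06) and was above background only in GGTI at 48 h.

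The alpha globin genes were among them. Hba-a1 read 6.30, 6.59 and 6.61 in DMSO and 5.95 and 6.15 with GGTI at 18 h. Hba-a1 at 48 h read 5.59, 6.22 and 5.94 in DMSO and 8.13, 7.96 and 7.84 with GGTI, an interaction of 2.52 ± 0.27 (adjusted p = 7.85e-06). Hba-a2, a nearly identical copy whose signal cannot be told from that of Hba-a1, was at 2.49 ± 0.28 (adjusted p = 1.52e-05). The beta globin genes did not pass: Hbb-bs had an interaction of 1.93 ± 0.81 (adjusted p = 0.26), and its GGTI 48 h arrays, at 5.49, 4.38 and 5.94, overlapped those of DMSO at 18 h, at 5.07, 5.76 and 5.56. Of 7 red cell markers, 2 were called higher, with a median interaction of 1.21 over the list, and the list's mean level was 5.38 to 5.63, 4.98 to 5.20, 4.99 to 5.25 and 5.68 to 6.03 on the DMSO 18 h, GGTI 18 h, DMSO 48 h and GGTI 48 h arrays. Ahsp, a hemoglobin chaperone that defines red cells, was near background in every group, with an interaction of 0.15, and Alas2, the heme enzyme of red cells, was at 0.04.

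Among myeloid markers Itgam, the integrin chain CD11b, was the 1 of 11 called, at 1.18 ± 0.29 (adjusted p = 0.0211). It was above background only in GGTI at 48 h, and its call was lost without any 1 of 6 arrays (the first or the third DMSO 18 h, either GGTI 18 h, the first DMSO 48 h and the first GGTI 48 h array). The mean of the 11 markers was 5.59 to 5.72 on GGTI 48 h arrays and 5.50 to 5.58 on DMSO 48 h arrays, and Cd68, Csf1r and Lyz2 did not pass, at 0.22, 0.13 and 0.14.

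Sterol synthesis genes were raised by GGTI more often early than late. Of 25 measured sterol synthesis genes 11 were higher with GGTI at 18 h and 5 at 48 h, where 2 were lower. The median effect was 0.44 at 18 h and 0.02 at 48 h. For the interaction 5 were called lower and none higher, with a median of -0.40. Hmgcs1, which makes the precursor of mevalonate, read 7.80, 8.17 and 8.07 in DMSO and 8.77 and 9.09 with GGTI at 18 h. Hmgcs1 at 48 h read 8.74, 8.82 and 8.83 in DMSO and 8.78, 8.92 and 8.63 with GGTI. The GGTI arrays lay above DMSO at 18 h, and at 48 h the DMSO arrays had climbed and the groups overlapped.

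The effect on Hmgcs1 was 0.92 at 18 h (adjusted p = 0.0101) and -0.02 at 48 h (adjusted p = 0.964), and the interaction was -0.94 ± 0.25 (adjusted p = 0.0355). It was -1.10 to -0.78 with 1 array left out, and the call was lost without any 1 of 8 arrays (all of DMSO 48 h, the first or the third DMSO 18 h, the second GGTI 18 h and the first or the third GGTI 48 h array), at an adjusted p of up to 0.222. The count of 5 became 1 without the first DMSO 18 h, the second GGTI 18 h or the second DMSO 48 h array and 3 without the third DMSO 48 h, the first GGTI 48 h or the third GGTI 48 h array. Its promoter is printed as the member of the list whose window held TCACCCCAC, the sterol regulatory element bound by SREBP factors, in capitals. RefSeq places it in GRCm38.p6, and the gene starts 30 bases before the end of the sequence.
Hmgcs1, chr13:119690181-119690380, plus strand: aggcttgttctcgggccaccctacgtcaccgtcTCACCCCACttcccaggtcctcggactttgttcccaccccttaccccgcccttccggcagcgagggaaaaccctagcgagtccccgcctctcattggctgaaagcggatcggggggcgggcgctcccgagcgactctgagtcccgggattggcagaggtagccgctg
The match began at base -137 relative to the start. Of the 25 genes 17 had a window and 1 held these letters on either strand, as did 0.551% of all 32851 windows.

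Lss, lanosterol synthase, read 8.17, 8.40 and 8.34 in DMSO and 8.80 and 9.05 with GGTI at 18 h. Its 48 h values were 8.67, 8.92 and 8.85 in DMSO and 8.68, 8.50 and 8.39 with GGTI, so it was higher with GGTI early, and the 48 h groups overlapped. The effect was 0.62 at 18 h (adjusted p = 0.0125) and -0.29 at 48 h (adjusted p = 0.0832), and the interaction was -0.91 ± 0.17 (adjusted p = 0.00306). Not all of the pathway behaved so: Mvd, mevalonate pyrophosphate decarboxylase, was higher at both times, at 0.93 and 0.89, with an interaction of -0.04 ± 0.21 (adjusted p = 0.967). From 18 h to 48 h DMSO cells raised 15 of the 25 sterol genes, and GGTI cells raised 1 and lowered 1.

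**Figure D4:**
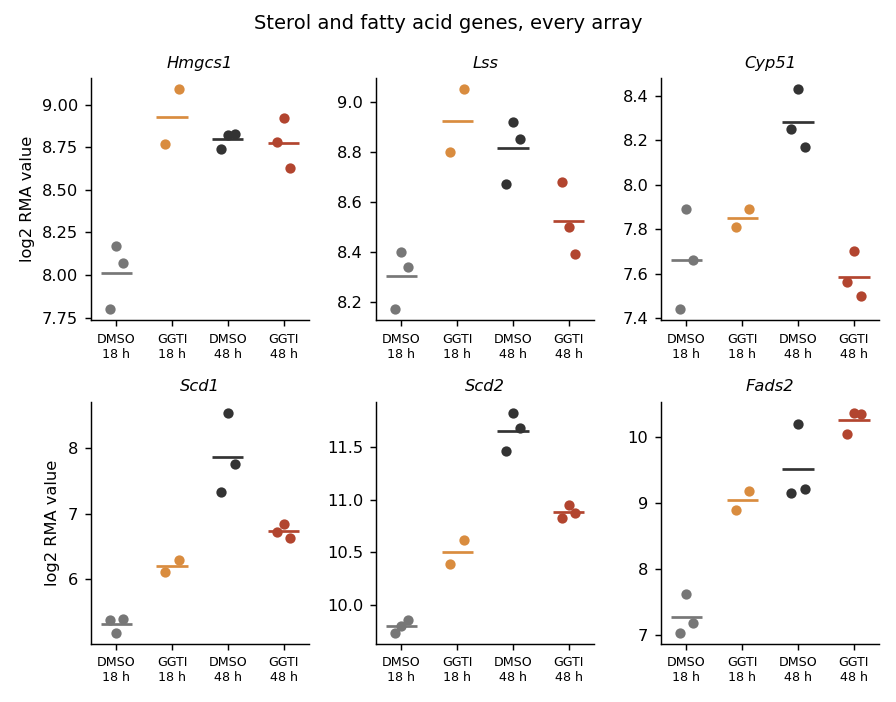
RMA value (log2, y axis of each panel, not starting at 0) of 3 sterol genes and 3 fatty acid desaturase genes, with 1 point per array and a line at each group mean. At 18 h the GGTI mean is above the DMSO mean in each panel; at 48 h they lie below DMSO for Cyp51, Scd1 and Scd2 and overlap it for Hmgcs1, Lss and Fads2.

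Kit, Scd2 and Ptgr1 were the genes called at both times with opposite signs and a called interaction. Scd2, a stearoyl-CoA desaturase that makes unsaturated fatty acids, read 9.74, 9.80 and 9.86 in DMSO and 10.39 and 10.62 with GGTI at 18 h. Scd2 at 48 h read 11.46, 11.82 and 11.68 in DMSO and 10.83, 10.95 and 10.87 with GGTI. The log2 effect was 0.71 at 18 h (adjusted p = 0.00201) and -0.77 at 48 h (adjusted p = 1.05e-05), with an interaction of -1.48 ± 0.15 (adjusted p = 7.1e-06). Scd1, the companion desaturase, read 5.39, 5.19 and 5.40 in DMSO and 6.11 and 6.29 with GGTI at 18 h. Its 48 h arrays read 7.33, 8.53 and 7.75 in DMSO and 6.72, 6.84 and 6.63 with GGTI, an interaction of -2.01 ± 0.32 (adjusted p = 0.000592). These were the 2 called members of 15 fatty acid synthesis genes, both lower, and the list's median was -0.29. For both the DMSO level rose between the times, by 1.85 for Scd2 and 2.54 for Scd1, and the GGTI level started higher and ended lower.

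Kit, the receptor for stem cell factor, read 7.57, 7.77 and 7.73 in DMSO and 6.32 and 6.58 with GGTI at 18 h. Kit at 48 h read 7.37, 7.36 and 7.38 in DMSO and 7.79, 8.19 and 8.37 with GGTI. The groups did not overlap at either time, and their order reversed, with effects of -1.24 (adjusted p = 0.000189) and 0.75 (adjusted p = 0.00056) and an interaction of 1.99 ± 0.21 (adjusted p = 9.29e-06). Ptgr1, a prostaglandin reductase, read 4.62, 4.11 and 4.53 in DMSO and 5.27 and 5.16 with GGTI at 18 h. Ptgr1 at 48 h read 5.69, 5.56 and 5.71 in DMSO and 5.16, 5.23 and 5.38 with GGTI, an interaction of -1.19 ± 0.20 (adjusted p = 0.00125). Its values lay close to background, with 2 of the 4 group means above it.

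Rdh11, a retinol dehydrogenase, and Gnb4, a G protein beta subunit, were called at 18 h and not at 48 h, as was Hmgcs1. Rdh11 read 6.10, 6.61 and 6.73 in DMSO and 7.31 and 7.40 with GGTI at 18 h. Rdh11 at 48 h read 7.39, 7.64 and 7.39 in DMSO and 7.22, 7.08 and 7.01 with GGTI, an interaction of -1.24 ± 0.22 (adjusted p = 0.00204). The effect on Gnb4 was 0.62 at 18 h and -0.22 at 48 h, with an interaction of -0.85 ± 0.17 (adjusted p = 0.00506).

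Anxa2 and S100a6 already had a large GGTI effect at 18 h. Anxa2, a calcium-dependent membrane-binding annexin, read 5.71, 6.21 and 5.83 in DMSO and 8.11 and 8.08 with GGTI at 18 h. Anxa2 at 48 h read 7.24, 7.14 and 7.29 in DMSO and 9.65, 9.84 and 9.51 with GGTI. The effect was 2.18 ± 0.22 and 2.44 ± 0.20, and the interaction of 0.26 ± 0.30 did not pass (adjusted p = 0.812). S100a6, a small calcium-binding protein, read 5.37, 5.38 and 5.45 in DMSO and 7.44 and 7.31 with GGTI at 18 h. Its 48 h arrays read 5.79, 5.64 and 6.03 in DMSO and 9.65, 9.64 and 9.44 with GGTI, so a large early effect grew further, by 1.78 ± 0.30 (adjusted p = 0.00131). Of 16 annexin and S100 genes 4 had a higher interaction, all of them S100 genes, and none a lower one. The 4 became 1 without the second GGTI 18 h array. The median of the list was 0.15.

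Among the GTPases that carry these lipids, Rhob had the largest early effect of those named here. Rhob, an endosomal small GTPase that can carry either lipid, read 6.41, 6.79 and 6.71 in DMSO and 8.65 and 8.88 with GGTI at 18 h. Rhob at 48 h read 6.33, 6.50 and 6.18 in DMSO and 9.44, 9.46 and 9.19 with GGTI. The effect was 2.13 ± 0.16 and 3.03 ± 0.14, and the interaction of 0.90 ± 0.21 (adjusted p = 0.0167) was 0.78 to 1.01 with 1 array left out and lost its call without the first GGTI 18 h array, at an adjusted p of 0.106. In the Ras and Rap family 2 of 18 had a higher interaction, Rras at 0.99 ± 0.16 and Rras2 at 0.68 ± 0.13 (adjusted p = 0.000665 and 0.00453), and the Rras2 call was lost without the first GGTI 18 h array. The median there was 0.04. None of the 16 genes of prenylation enzymes and processing passed limma's test. With 4.14% of all genes called, a list of this size would hold few calls at that share. By unadjusted p under 0.05 in limma 5 of the 16 would pass, against 3074 of all 21928 genes. Pggt1b, Fntb and Fnta had interactions of -0.42 ± 0.18, -0.16 ± 0.24 and 0.08 ± 0.20 (adjusted p = 0.276, 0.867 and 0.936).

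Of 19 Treg identity genes 4 had a called interaction (21.1%, against 4.14% of all genes), and Foxp3 was not among them. Foxp3, the lineage factor, read 11.24, 11.09 and 11.06 in DMSO and 11.16 and 11.17 with GGTI at 18 h. Foxp3 at 48 h read 10.80, 10.77 and 10.87 in DMSO and 11.08, 10.93 and 11.09 with GGTI. The interaction was 0.18 ± 0.12 and did not pass (adjusted p = 0.569). Neither did Ctla4, the inhibitory receptor that Treg cells use against antigen-presenting cells, at -0.42 ± 0.16 (adjusted p = 0.187), nor Icos, its costimulatory relative, at -0.06 ± 0.17 (adjusted p = 0.94). Il2ra, the interleukin-2 receptor alpha chain, had an interaction of 0.54 ± 0.15 (adjusted p = 0.0475) that lost its call under 13 of 19 alternatives. Of the 4 calls 3 were higher and 1, the cysteine protease inhibitor gene Cst7, was lower, and the median of the list was 0.19. The lower call was lost without the second GGTI 18 h array and became 2 without the first. The 3 became 0 without the second GGTI 18 h array and 1 without the first or the third DMSO 18 h, the first GGTI 18 h, the third DMSO 48 h or the second or the third GGTI 48 h array.

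No interaction was called among cell division genes. Of all genes 4.14% were called, and lists of this size would hold few calls at that share. Mki67, the marker of cycling cells, read 10.41, 10.50 and 10.35 in DMSO and 10.67 and 10.86 with GGTI at 18 h. Mki67 at 48 h read 11.38, 11.40 and 11.37 in DMSO and 11.62, 11.63 and 11.62 with GGTI. It rose with time in both, by 0.96 and 0.86, and the interaction was -0.10 ± 0.19 (adjusted p = 0.9). All 32 mitosis genes rose between 18 h and 48 h in DMSO and in GGTI cells, with medians of 1.56 and 1.48, and none had a called interaction. Called interactions were also absent among 32 DNA replication, 24 oxidative phosphorylation, 21 G1 and 16 NF-kappaB genes, with medians of -0.02, -0.12, 0.11 and 0.19. By unadjusted p under 0.05 in limma, 2 mitosis, 1 DNA replication, 2 oxidative phosphorylation, 5 G1 and 6 NF-kappaB genes would pass, against 3074 of all 21928 genes.

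In 2 further lists most calls were lost when certain single arrays were left out. Of 16 ERK feedback and output genes 5 were called (31.2%), and 4 had a lower and 1 a higher interaction, with a median of -0.34, and the 4 became 0 without the first DMSO 18 h, the first DMSO 48 h or the third GGTI 48 h array, 1 without either GGTI 18 h or the first GGTI 48 h array, and 2 without the second DMSO 18 h or the second or the third DMSO 48 h array. The higher one was Spry1, an inhibitor of receptor signalling, at 1.07 ± 0.20 (adjusted p = 0.00303). Of 21 ATF4 stress genes 3 were called (14.3%), of which 2 were higher and 1 lower, with a median of -0.26; the 2 became 1 without any 1 of 7 arrays (the first or the third DMSO 18 h, the second GGTI 18 h, the first or second DMSO 48 h and the first or the third GGTI 48 h array), and the 1 became 0 without the first DMSO 18 h, the second GGTI 18 h or the second DMSO 48 h array. Trib3, a pseudokinase of that response, read 6.19, 6.05 and 6.16 in DMSO and 6.52 and 6.65 with GGTI at 18 h. Trib3 at 48 h read 6.09, 6.01 and 5.86 in DMSO and 7.72, 7.87 and 7.65 with GGTI, an interaction of 1.31 ± 0.14 (adjusted p = 7.1e-06).

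FTI, the other inhibitor of the series, was the most similar treatment and was tested for the same time dependence. It shares the DMSO arrays with GGTI, so the 2 interactions are given side by side, and the test between them, (GGTI minus FTI at 48 h) minus (GGTI minus FTI at 18 h), uses no DMSO array. Only 42 genes (0.192%) had a called FTI interaction, against 907 for GGTI. The test between the inhibitors called 687 genes (3.13%), 419 higher with GGTI (1.91%) and 268 lower (1.22%). These 687 were 408 and 392 without the first or the second GGTI 18 h array, and the 42 were 25 without the first DMSO 18 h or the second DMSO 48 h array and 24 without the third DMSO 48 h array.

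For Ccl3, whose FTI arrays read 6.78, 7.33 and 7.28 at 18 h and 9.31, 8.88 and 9.20 at 48 h, the FTI interaction was -0.40 (adjusted p = 0.834), and the difference of the interactions was -4.16 (adjusted p = 5.08e-07). Ifitm3 read 6.74, 6.63 and 6.55 with FTI at 18 h and 7.03, 7.10 and 7.25 at 48 h, an FTI interaction of 0.22 (adjusted p = 0.775), and the difference was 2.66 (adjusted p = 2.12e-09). Ifitm2 did rise late with FTI, from 8.10, 8.23 and 8.19 at 18 h to 9.12, 8.90 and 9.11 at 48 h. Its DMSO arrays read 7.72, 7.99 and 8.01 at 18 h and 7.81, 8.10 and 7.73 at 48 h. All 12 of the highest GGTI interactions passed the test against FTI. Of the 12 lowest, Slamf7, Prss16, Spp1, Ifng and Smim3 did not. Spp1 read 5.23, 5.05 and 5.05 with FTI at 18 h and 5.08, 5.06 and 4.97 at 48 h, near background as with GGTI, and its FTI interaction was -2.33 (adjusted p = 8.74e-07). The difference for Spp1 was 0.05 ± 0.19 (adjusted p = 0.949), and that for Slamf7 was -0.30 ± 0.24 (adjusted p = 0.668), with a called FTI interaction of -2.13 (adjusted p = 9.94e-05). These p-values do not show that the inhibitors acted alike.

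By list, the test between the inhibitors called 14 of 27 resting T cell genes higher with GGTI and none lower, with a median difference of 0.54. It called 10 of 23 glycolysis genes and 8 of 28 ribosome biogenesis genes lower and none higher, with medians of -0.49 and -0.43. Of the 25 sterol genes it called 5 lower, with a median of -0.44. In the same 4 lists the FTI interaction was called for no gene, with medians of 0.04, 0.01, -0.03 and 0.02. In the T-bet programme it was called lower for 2 of 15 genes, with a median of -0.22. These were Ifng, at -1.84 with FTI and -2.23 with GGTI, and Eomes, at -2.26 with FTI and -1.70 with GGTI, and neither passed the test between the inhibitors (adjusted p = 0.522 and 0.448).

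**Figure D5:**
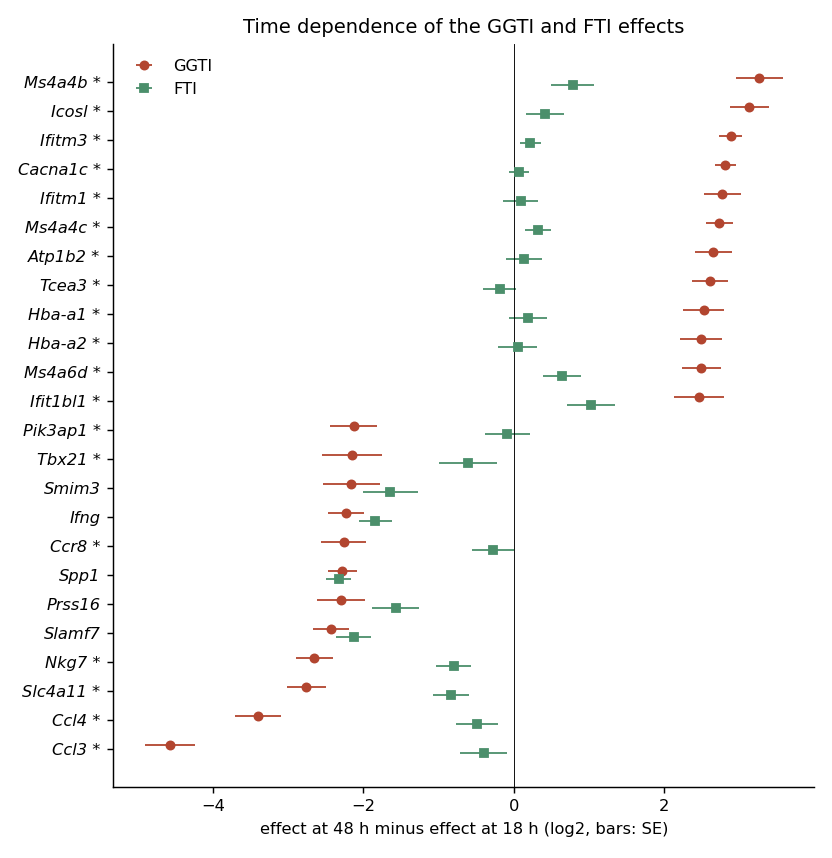
Interaction (effect at 48 h minus effect at 18 h, log2, x axis) with its standard error as bars for GGTI (red circles) and FTI (green squares), for the 12 highest and 12 lowest GGTI interactions among named genes; an asterisk after the name marks an adjusted p under 0.05 for the difference of the 2 interactions. The 2 inhibitors stand apart at all 12 upper genes and close together at Spp1, Slamf7 and Ifng.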

How the data were processed

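RNA of 1 to 20 ng per sample was amplified and labelled with NuGEN kits and hybridised to Affymetrix arrays, per the labels' protocols. The authors deposited log2 values per probe set, made with RMA in Affymetrix Expression Console 1.1, per the submitters' processing notes. RMA places arrays on 1 distribution, so a change shared by most genes would not show. The series' value table and the authors' table differed by at most 1.8e-15.

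Of 28846 probe sets, 6640 controls were left out, and the probe set with the highest mean was kept for each of 21928 symbols. No dim probe sets were filtered out. Symbols were updated through RefSeq accessions (20468 matched). limma 3.58.1 in R 4.3.3 fitted the means of 7 groups over all 20 arrays, with Benjamini-Hochberg adjustment over 21928 genes and a threshold of 0.05. The fit was tested on simulated data. Depth does not apply to arrays, and the number of arrays limits the precision.

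The members and gene lists were chosen with earlier results of these data known. Named genes were the 12 highest and 12 lowest called interactions among annotated genes, the 3 smallest p-values of each list, a fixed set of Treg and prenylation genes, and the 3 largest with opposite or early effects. Other genes, such as Stat4, Bach2, Bst2, Isg15, Il1rl1, Mvd and further markers and family members, were chosen after their values were seen. Alternatives were a filter on dim probe sets, the 11 arrays alone, 2 centrings, averaged probe sets, variance trend, robust variance, array weights and leaving out each array, and, added after seeing the data, a block on each array's position in the running numbers of its group. Some genes and 1 gene list are not reported here.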

Additional observations from a re-analysis of the deposited data

Results flagged for a closer look

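The GGTI effect differed between 18 h and 48 h, by limma's test of the interaction, for 907 genes. For 3 of them the effect was called at both times with opposite signs. The interaction was 1.99 on the log2 scale for Kit, -1.19 for Ptgr1 and -1.48 for Scd2. With 1 array left out it was 1.86 to 2.15 for Kit, -1.29 to -1.04 for Ptgr1 and -1.60 to -1.36 for Scd2. Groups of 2 or 3 arrays are too small to test a single array as an outlier.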

How the results depend on the processing

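Under 19 alternatives, 11 of which left out 1 array, 62 of the 91 named genes with a called interaction kept their call in each, 29 lost it in at least 1, and none of the 91 changed sign. Of the 44 named genes without a call, 15 gained one in at least 1 alternative. The 907 calls were 821 and 842 after centring, 824 with the 11 arrays alone, 1185 with dim probe sets removed, 1249 with a variance trend and 1174 with array weights. The share of higher calls was 55.1% and became 48.5% after centring on all probe sets. Calls at 18 h were 740 with dim probe sets removed and 769 with a variance trend. Calls for the FTI interaction were 78 with a variance trend, and calls between the inhibitors were 1053 with a variance trend and 1099 with array weights. With 1 array left out, counts ranged from 469 to 891 for the interaction, 292 to 471 for higher and 177 to 420 for lower calls, 267 to 321 for 2-fold calls, 87 to 434 for 18 h, 3883 to 4902 for 48 h, 1801 to 3485 for the DMSO and 1076 to 2430 for the GGTI course, 24 to 41 for FTI and 392 to 768 between the inhibitors. Uncalled values near 0 changed sign for Myc (-0.01 and -0.03 after centring, -0.05 to 0.04 with 1 array left out), Fnta (-0.10 to 0.25 with 1 array left out) and Fntb (-0.42 to 0.09). The cause was not tested. The titles carry running numbers and no replicate numbers, so the labels pair no arrays. Position within a group was still checked, after seeing the data. Il18r1, the interleukin-18 receptor gene, was lower on the second array than on the first in 7 of 7 groups, by 1.06 to 1.41. Deviations from group means over all genes correlated at -0.14 to 0.24 between arrays at the same position and -0.24 to 0.19 between others, and 14 of 20 arrays were closest to their own position. With that position as a replicate block 921 genes were called for the interaction, 833 of them among the 907, 487 for 18 h and 4896 for 48 h. Of the named genes 3 lost their call with the block (Hmgcs1 at an adjusted p of 0.0525 among them), 4 gained one, and Myc turned to -0.03. The series' value table was not run as an alternative, since both tables hold the same values. Genes near background have a limited range, and 27 of the 907 had no group mean above it.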
